A study of Mus musculus with 12 samples.

Results

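The 9 genes described here write, erase or read cytosine methylation: the methyltransferase genes Dnmt1 and Dnmt3a, the dioxygenase genes Tet1, Tet2 and Tet3, and the methyl-CpG-binding domain genes Mbd1, Mbd2, Mbd3 and Mbd5. They were taken by name from 3 tables of gene expression in mouse prefrontal cortex, and all 9 were listed in each table, among 40473, 40478 and 40470 named genes at 2 h, 24 h and 7 d. C57BL/6 mice of 10 weeks in the labels, named as male C57BL/6 J in the study's methods, had received repeated daily injections of saline or cocaine, and the prefrontal cortex was taken at 2 h, 24 h or 7 d of withdrawal, counted from the last injection. There were 6 groups, a saline and a cocaine group at each time, with 2 libraries per group and the tissue of 5 animals pooled in each library, so that 12 libraries held 60 animals. The tissue was bulk cortex, in which fewer cells of a type and less RNA per cell cannot be told apart.

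DNA methyltransferases put a methyl group on cytosine, mostly where a guanine follows (CpG). DNMT1 copies the pattern onto the new strand when DNA is replicated, and DNMT3A methylates sites anew and is the main de novo enzyme of postnatal neurons, where it also methylates cytosines outside CpG. TET enzymes oxidise 5-methylcytosine to 5-hydroxymethylcytosine, which is abundant in neurons, and on to forms that base excision repair replaces with cytosine. Proteins with a methyl-CpG-binding domain (MBD) recruit repressor complexes: MBD2 and MBD3 are alternative subunits of the NuRD chromatin remodelling and deacetylase complex, and MBD1 works with the histone methyltransferase SETDB1. MBD3 binds methylated CpG only weakly, and MBD5 carries the domain but associates with the PR-DUB histone deubiquitinase complex.

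Each group had 1 value per gene in the tables, in FPKM (fragments mapped to a transcript, scaled to its length and to the mapped fragments of the library), which the authors had pooled over the 2 libraries of the group. There is therefore no spread between replicates, and no test of any difference was made here. All values below are those pooled FPKM, with cocaine set against saline as a ratio or as log2 of that ratio. A ratio of at least 1.2, or of at most its inverse, is called past 1.2-fold (a log2 ratio of 0.26 or more in size), as a size and not as a test. The background for these counts was every locus with an FPKM above 0 in both groups whose status was OK, the mark with which the Cuffdiff program shows that a locus was tested. A locus with too few alignments is marked NOTEST, and FAIL marks a locus at which the computation stopped on a numerical error. The 3 tables were made in separate runs and normalized separately, which bears on every level set side by side across the times. Gene positions below are those of the loci in the tables of 2 h and 24 h, on GRCm38, and in the table of 7 d a border of Dnmt1, Dnmt3a, Mbd1, Mbd2 and Mbd5 lay at a slightly different base.

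Of the 9 genes, Tet3 and Tet2 had the largest ratios of cocaine to saline. Tet3 was past 1.2-fold higher in cocaine at 2 h, 24 h and 7 d, and Tet2 at 7 d. None of the other 7 genes was past 1.2-fold in either direction at any time. These 4 values of 27 made 1 member of 9 higher at 2 h, where 12.9% of 15852 background loci were at least 1.2-fold higher and 12.1% lower. They made 1 of 9 at 24 h (background of 16962 loci, 9.73% higher and 9.67% lower) and 2 of 9 at 7 d (background of 16547 loci, 13.2% higher and 14.6% lower). The rows of Tet3 at 2 h and 24 h carried the status FAIL and were thus not among the background loci. Over all loci with both values above 0, whatever their status, 17.81%, 15.92% and 19.1% were at least 1.2-fold higher at 2 h, 24 h and 7 d, and 18.86%, 17.01% and 20.59% lower. The counts of higher members were at most 1 gene above the share of either background, and no member was past 1.2-fold lower. Just inside the threshold was Tet3 at 24 h (1.201-fold), and just outside it was Mbd5 at 2 h (1.197-fold).

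The promoters of the 3 TET genes are shown because Tet3 and Tet2 had the largest ratios of the 9 genes and because the TET promoters differ in their content of CpG, the dinucleotide on which these enzymes act. Each line below gives the 250 bases before the start site in the RefSeq annotation of GRCm38.p6, 5′ to 3′ on the strand of the gene, with every CpG in capitals. The Tet1 stretch is chr10:62887325-62887574, that of Tet2 is chr3:133544391-133544640 and that of Tet3 is chr6:83441679-83441928, all on the minus strand.
Tet1: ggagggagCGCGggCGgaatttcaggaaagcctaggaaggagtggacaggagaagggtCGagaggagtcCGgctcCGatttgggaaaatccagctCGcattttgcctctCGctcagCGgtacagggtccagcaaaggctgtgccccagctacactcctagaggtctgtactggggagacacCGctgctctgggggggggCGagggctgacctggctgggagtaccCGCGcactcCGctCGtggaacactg
Tet2: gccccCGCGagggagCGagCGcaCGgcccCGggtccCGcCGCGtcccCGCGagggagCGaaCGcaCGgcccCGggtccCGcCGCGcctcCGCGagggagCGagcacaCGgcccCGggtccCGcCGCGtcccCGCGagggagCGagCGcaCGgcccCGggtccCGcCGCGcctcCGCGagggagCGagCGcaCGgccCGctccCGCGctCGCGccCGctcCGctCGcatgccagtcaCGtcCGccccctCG
Tet3: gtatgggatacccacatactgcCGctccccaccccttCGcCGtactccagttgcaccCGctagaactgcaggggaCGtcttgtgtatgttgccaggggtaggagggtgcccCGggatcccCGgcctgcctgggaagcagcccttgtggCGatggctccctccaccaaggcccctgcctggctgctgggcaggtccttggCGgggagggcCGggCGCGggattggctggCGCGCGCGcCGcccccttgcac
The Tet2 stretch held 51 CpG, against 17 for Tet3 and 15 for Tet1. It is also repetitive: of its bases that have another base 42 positions further on in the stretch, 77.88% equal that base. The best such share at any step from 20 to 80 bases was 34.85% for Tet3 and 35.09% for Tet1. In windows of 300 bases, 250 before and 50 after the start, Tet2 had 57 CpG, which lay at percentile 99.85 of 32851 mouse promoters. Tet3 had 22 CpG (percentile 76.9) and Tet1 had 17 (percentile 68.6), and the median of all promoters was 7. The Tet2 stretch ended at the border of the Tet2 locus in the tables, whereas those of Tet1 and Tet3 lay inside the loci in the tables, which began further upstream.

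RefSeq promoters were found for 7 of the 9 genes, in 12 windows. Dnmt3a had 3 windows with 46, 47 and 18 CpG, and Dnmt1 had 3 with 2, 12 and 33. The Mbd3 window held 22 CpG and the Mbd5 windows 19 and 4. Mbd1 and Mbd2, both on chr18, were not among the matched genes, so that nothing is shown here about their promoters. Of 5 motifs searched on both strands, the SP factor motif GGGCGG was in 9 of the 12 windows and in at least 1 window of each of the 7 genes, against 35.66% of all promoters. All 3 Dnmt3a windows held it, and 2 of them overlap. The promoters set beside the windows were not matched for their content of CpG. The E-box CACGTG was in 2 of the 12 windows, of Mbd5 and Dnmt3a, against 7.15% of all. The cyclic AMP response element TGACGTCA, the AP-1 motif TGANTCA and the EGR motif GCGTGGGCG had no match in the 12 windows, against 1.79%, 7.808% and 0.6119% of all promoters. None of the motifs contains another, and a match is a run of letters in a window and was not tested as a binding site.

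The levels of the 9 genes spanned about the same range in every group, with Mbd3 at the top and the erasers at the bottom. Mbd3 had between 56.7 and 64.4 FPKM in the 6 groups and Mbd2 between 19.2 and 21.2. Mbd5 (7.70 to 10.3), Mbd1 (6.17 to 7.83) and Dnmt1 (6.20 to 6.86) lay next to each other. Dnmt3a ranged from 3.46 to 4.35 FPKM. The erasers were the least abundant, with Tet3 at 1.76 to 3.39, Tet2 at 0.717 to 1.11 and Tet1 at 0.316 to 0.469 FPKM. FPKM is set per length, so that genes can be ordered by it. The order from Mbd3 down to Tet1 was the same in 5 of the 6 groups, and in the cocaine group at 7 d Dnmt1 stood above Mbd1. Among neighbours in that order, only Mbd5 and Mbd1, and Mbd1 and Dnmt1, had ranges that overlapped over the 6 groups. No spread over libraries was available to set beside these gaps.

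**Figure D1:**
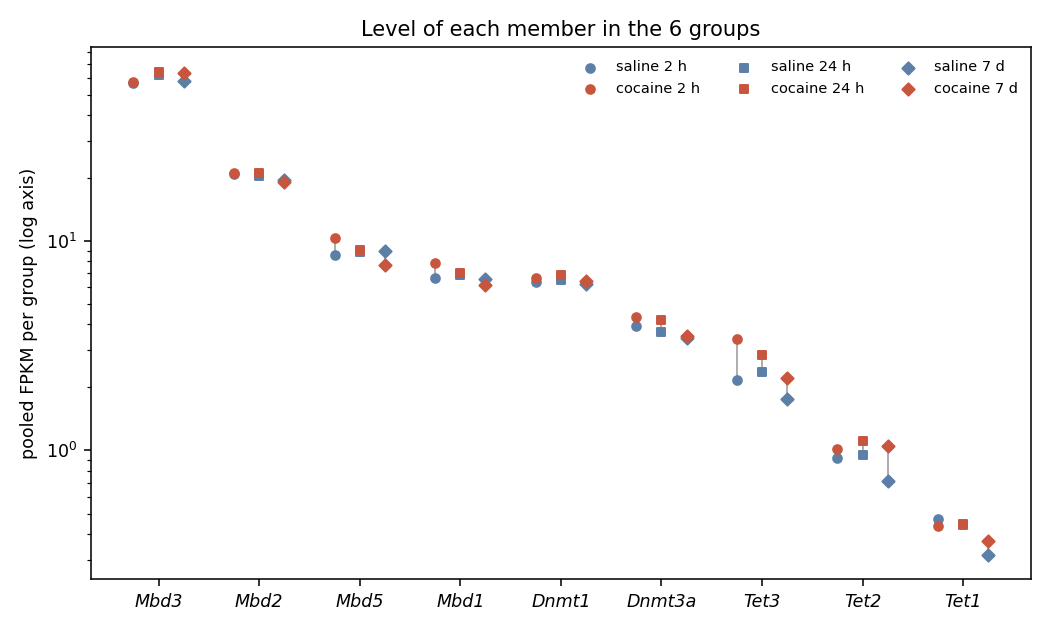
Pooled FPKM (log axis) of the 9 genes in the 6 groups, with saline in blue and cocaine in red, circles for 2 h, squares for 24 h and diamonds for 7 d, and a grey line joining the 2 groups of a time. The genes run from Mbd3 (56.7 to 64.4 FPKM) to Tet1 (0.316 to 0.469 FPKM), and the longest grey lines are those of Tet3 at 2 h and Tet2 at 7 d.

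Dnmt1, the maintenance methyltransferase (chr9:20907205-20959888), differed little between cocaine and saline. It had 6.34 FPKM in saline against 6.67 in cocaine at 2 h, 6.48 against 6.86 at 24 h and 6.20 against 6.43 at 7 d. Cocaine was higher at each time, with log2 ratios of 0.07, 0.08 and 0.05. The values of the 2 treatments overlapped across the times, since the saline level at 24 h was above the cocaine level at 7 d.

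Dnmt3a, the de novo methyltransferase (chr12:3803317-3914443), was a little higher in cocaine at the early times. It had 3.94 FPKM in saline against 4.35 in cocaine at 2 h, and 3.67 and 4.19 at 24 h. At 7 d the values were 3.46 and 3.50, so that the log2 ratios were 0.14, 0.19 and 0.02. The 24 h value stood at percentile 85.6 of the background. An antisense gene, Dnmt3aos, lies in the same locus and was listed at 0 in 5 groups and at 0.0169 FPKM in the saline group of 2 h. The library kit did not mark strand, so that reads of the 2 genes cannot be told apart. Dnmt1 stood 1.53 to 1.84 times above Dnmt3a in the 6 groups.

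The other de novo enzyme gene, Dnmt3b, was listed at 0.0656 to 0.0964 FPKM, and Dnmt3l, a cofactor of the de novo enzymes in germ cells, at 0.0212 to 0.294. Uhrf1, which guides DNMT1 to hemimethylated DNA in dividing cells, was listed at 0.0643 to 0.214 FPKM, whereas its paralog Uhrf2 had 8.96 to 11.5. Dnmt3b, Dnmt3l and Uhrf1 carried the status NOTEST in every table. In the list of 8 writers' partners, the 4 genes in the background (Uhrf2, Dmap1, Pcna and Usp7) were all within 1.2-fold at each time, with a median log2 ratio of 0.02, -0.05 and -0.03 at 2 h, 24 h and 7 d, beside 0.02, 0.01 and -0.01 over the whole background.

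Tet3 (chr6:83362373-83459084), the most abundant TET gene, was higher in cocaine at all 3 times. It had 2.16 FPKM in saline against 3.39 in cocaine at 2 h, 2.37 against 2.84 at 24 h and 1.76 against 2.22 at 7 d. The cocaine level at 7 d lay below the saline level at 24 h, so that the 2 treatments overlapped across the times although not within any of them. The log2 ratios were 0.65, 0.26 and 0.34, and they stood at percentiles 97.0, 90.3 and 90.9 of the background. The row of Tet3 was OK at 7 d alone. Of the 113 loci with status FAIL and both values above 0 at 2 h, 6.195% were at least 1.2-fold higher in cocaine, and 9.434% of 106 such loci at 24 h. Among loci of a mean FPKM from 2 to 5 at 2 h, the 5th and 95th percentiles of the log2 ratio were -0.40 and 0.47 (2986 loci), and the 0.65 of Tet3 lay outside them. This value was the only one of the 27 values of the 9 genes to lie outside the range of loci of like level. By construction, 5% of the loci that set such a range lie above it and 5% below it, so that 1 value of 27 is not more than that share. The range was set by loci of status OK, whereas the row of Tet3 at 2 h was not. Another gene listed in the same locus, B230319C09Rik, had 0.138 to 0.378 FPKM.

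Tet2 (chr3:133463679-133544390) was also higher in cocaine at all 3 times, with its largest ratio at 7 d. It had 0.924 FPKM in saline against 1.01 in cocaine at 2 h, 0.952 against 1.11 at 24 h and 0.717 against 1.05 at 7 d. All 3 cocaine values stood above all 3 saline values. Tet2 was the only one of the 9 genes of which this was so, and 3.52% of 13658 genes in the background of all 3 tables had that order, across tables that were normalized separately. The log2 ratios were 0.13, 0.22 and 0.55. The last of them, a ratio of 1.46, stood at percentile 95.7 of the background at 7 d. Its rows were OK in all 3 tables. Loci at the level of Tet2 spread widely: among 3995 loci of a mean FPKM from 0.5 to 2 at 7 d, the 5th and 95th percentiles of the log2 ratio were -0.73 and 0.69, and 24.46% were at least 1.2-fold higher in cocaine. The value of Tet2 lay within that range.

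Tet1 (chr10:62804570-62899118), the least abundant of the 9, carried the status NOTEST in all 3 tables, and its values are given as listed. It had 0.469 FPKM in saline against 0.436 in cocaine at 2 h, 0.442 against 0.446 at 24 h and 0.316 against 0.369 at 7 d. The log2 ratios at the 3 times were -0.10, 0.01 and 0.22. At 7 d the 5th and 95th percentiles for 824 loci of a mean FPKM from 0.2 to 0.5 were -1.51 and 1.98, so that a ratio of this size was common at this level.

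Summed over the TET genes, the level was 3.56 FPKM in saline against 4.84 in cocaine at 2 h, 3.76 against 4.40 at 24 h and 2.79 against 3.64 at 7 d, which are ratios of 1.36, 1.17 and 1.30. Tet3 made up 60.9% to 70.0% of that sum in the 6 groups, with the highest share in cocaine at 2 h. Tet2 made up 20.9% to 28.8%, with the lowest share in the same group and the highest in cocaine at 7 d. The sums at 2 h and 24 h thus rested mostly on Tet3 rows with status FAIL.

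**Figure D2:**
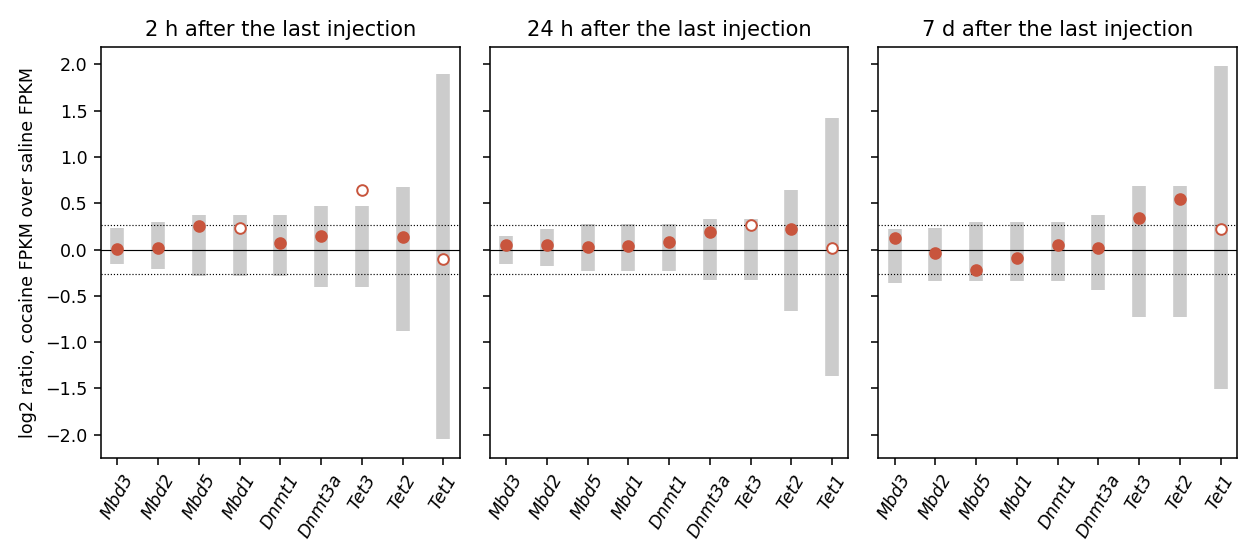
Log2 ratio of cocaine FPKM over saline FPKM for the 9 genes at each time, with filled points for rows of status OK and open points for NOTEST or FAIL, grey bars from the 5th to the 95th percentile of background loci of like mean FPKM, and dotted lines at 1.2-fold. Tet3 at 2 h (0.65) is the only point outside its bar, and the bars are widest for Tet1.

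Saline levels of the TET genes also differed between the tables. From 24 h to 7 d the log2 ratio of saline levels was -0.48 for Tet1, -0.41 for Tet2 and -0.43 for Tet3, beside a median of -0.03 over 14018 genes. These 3 values stood at percentiles 5.59, 7.62 and 7.00. In cocaine, the same log2 ratio was -0.28 for Tet1, -0.08 for Tet2 and -0.35 for Tet3, beside a median of -0.05. The ratio of Tet2 at 7 d was therefore reached with a cocaine level (1.05 FPKM) between those at 2 h and 24 h and a saline level (0.717 FPKM) below both of the others. Over the 3 tables, the highest saline level was 1.48 times the lowest for Tet1, 1.34 times for Tet3 and 1.33 times for Tet2. It was 1.14 times for Dnmt3a and at most 1.09 times for the other 5 genes. The saline range across tables was thus wider than any ratio between treatments within a table for Tet1. For Tet2 it was narrower than the ratio at 7 d (1.46) and wider than the other 2, and for Tet3 narrower than the ratio at 2 h (1.56) and wider than the other 2.

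The ratio of cocaine to saline at 7 d varied with transcript length over all genes. Genes were placed in 20 groups by the length of their longest protein-coding transcript, and the median log2 ratio at 7 d ran from -0.24 in the shortest group (66 to 875 nt) to 0.15 in the longest (7773 to 28204 nt). At 2 h the medians of those outer groups were 0.01 and 0.08, and at 24 h -0.03 and 0.03. The TET genes and Dnmt3a, with transcripts of 14369 (Tet1), 9179 (Tet2), 10904 (Tet3) and 9685 nt (Dnmt3a), were in the longest group. With the median of its length group taken off, the log2 ratio at 7 d was 0.40 for Tet2, 0.19 for Tet3, 0.07 for Tet1 and -0.13 for Dnmt3a. Tet3 was then under the 1.2-fold line at 7 d and Tet2 above it. At 2 h Tet3 stood at 0.56 after the same step. The saline levels also varied with length from 24 h to 7 d, but in the opposite direction. Their median log2 ratio was 0.09 in the length group of Mbd3 (1662 nt) and -0.19 in the longest group. In cocaine the same medians were -0.02 and -0.06. The part of length in the TET values was not tested.

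**Figure D3:**
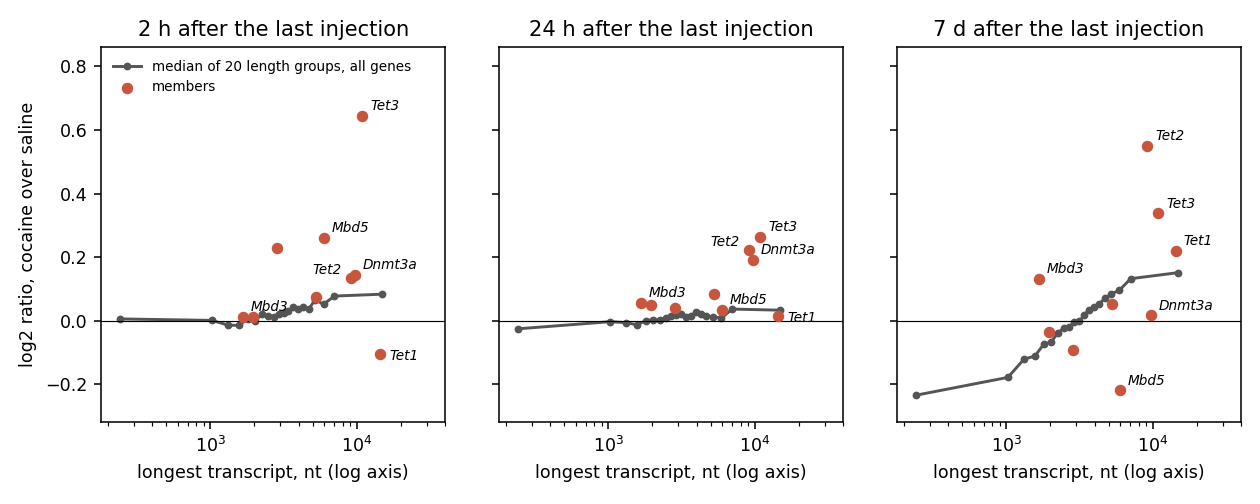
Log2 ratio of cocaine FPKM over saline FPKM against the longest protein-coding transcript (nt, log axis), with the medians of 20 length groups of all genes in grey, each placed at the geometric middle of its group, and the 9 genes in red. At 7 d the grey line climbs from -0.24 to 0.15, Tet2 (0.55) and Tet3 (0.34) stand above it and Mbd5 (-0.22) below it.

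Among the readers, Mbd5 (chr2:48814109-49322284) had the widest swing between times. It had 8.61 FPKM in saline against 10.3 in cocaine at 2 h, 8.85 against 9.05 at 24 h and 8.97 against 7.70 at 7 d. Cocaine was the higher group at 2 h and 24 h and the lower at 7 d, with log2 ratios of 0.26, 0.03 and -0.22. The saline values kept within 8.61 to 8.97 while the cocaine values spanned 7.70 to 10.3. The 2 h value stood at percentile 86.9 of the background and the 7 d value at percentile 18.1. With the length median taken off, the 7 d value was -0.32, past 1.2-fold lower. The locus overlaps the rows of Acvr2a, Gm13509 and Orc4 in the tables. Acvr2a, an activin receptor, had 6.45 FPKM in saline against 5.98 in cocaine at 2 h, 5.88 against 6.76 at 24 h and 6.09 against 6.05 at 7 d. Gm13509 had 13.1 against 12.1, 13.1 against 13.3 and 12.9 against 11.9 at these times. Orc4, a subunit of the origin recognition complex, had 20.9 FPKM in saline against 19.7 in cocaine at 2 h, 19.4 against 16.7 at 24 h and 25.4 against 18.9 at 7 d. Orc4 was thus lower in cocaine at each time and the other two at 2 h and 7 d, and the part of reads from overlapping genes in the Mbd5 values was not tested.

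Mbd1 (chr18:74268190-74282685) went the same way on a smaller scale. It had 6.68 FPKM in saline against 7.83 in cocaine at 2 h, 6.85 against 7.04 at 24 h and 6.58 against 6.17 at 7 d. The log2 ratios were 0.23, 0.04 and -0.09, and the row at 2 h, the largest of them, carried the status FAIL.

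The abundant readers, Mbd2 and Mbd3, were within 1.2-fold at each time. Mbd2 (chr18:70568189-70629112) had 20.9 FPKM in saline against 21.0 in cocaine at 2 h, 20.4 against 21.2 at 24 h and 19.6 against 19.2 at 7 d, with log2 ratios of 0.01, 0.05 and -0.03. Mbd3 (chr10:80392539-80399550) had 56.7 against 57.1 FPKM at 2 h, 62.0 against 64.4 at 24 h and 57.8 against 63.2 at 7 d, with log2 ratios of 0.01, 0.05 and 0.13. The ratio of Mbd3 to Mbd2, the alternative subunits of NuRD, lay between 2.72 and 3.30 in the 6 groups and was highest in cocaine at 7 d. Mbd3 has a short transcript (1662 nt), and with its length median taken off its log2 ratio at 7 d was 0.24, under the 1.2-fold line.

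Taking direction alone, 8 of the 9 genes were higher in cocaine at 2 h, 9 at 24 h and 6 at 7 d, where 54.28%, 52.02% and 48.86% of background loci were higher. The median log2 ratio of the 9 genes was 0.13, 0.05 and 0.05, beside 0.02, 0.01 and -0.01 for the background. Dnmt1, Dnmt3a, Tet2, Tet3 and Mbd3 were higher in cocaine in all 3 tables, which is 5 of 9 genes where 18.4% of 13658 background genes were higher in all 3. With the background median taken off it was 4 genes, without Mbd3, beside 17.04% of the background. With the length medians taken off it was also 4, Tet2, Tet3, Mbd2 and Mbd3, beside 16.54% of 11606 genes with a length. Of the 27 rows of the 9 genes, 21 had the status OK, and Tet3 at 2 h and 24 h, Mbd1 at 2 h and Tet1 at each time did not. The background shares over all 3 tables were taken among genes of status OK in each table. That set is without Tet3, Mbd1 and Tet1, whereas the counts of the 9 genes include them. The direction of a value with a log2 ratio near 0, as for Mbd2, says little without a spread between libraries.

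Around the 9 genes, 7 lists of partners held 66 genes, of which 57 were in the background at each time, though not the same 57. At 2 h 6 of the 57 were past 1.2-fold higher in cocaine and 2 lower, at 24 h 3 and 0, and at 7 d 3 and 2. Their median log2 ratios were 0.08, 0.02 and 0.02, near the background medians given above. At each time and in both directions, the share of the 57 of that time past 1.2-fold was below that of the background. The background was not matched to the partners for level. At 2 h, 20.46% of its loci of a mean FPKM from 0.5 to 2 were past 1.2-fold higher and 28.38% lower. For loci from 10 to 30 FPKM these shares were 6.737% and 2.768%. The comparison therefore does not show whether the partners differed less than genes of their level.

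The partners of the TET enzymes, with the glycosylases and repair factors that replace oxidised cytosines, had the widest values. Gadd45b, an activity-induced gene linked to demethylation of promoters in neurons, had 5.29 FPKM in saline against 9.04 in cocaine at 2 h (log2 ratio 0.77), and 7.23 and 8.89 at 24 h (0.30). Gadd45a had 2.55 and 3.27 FPKM at 2 h (0.36) and 1.80 and 2.45 at 7 d (0.45), whereas Gadd45g had 8.39 and 6.53 at 2 h (-0.36). The members of the Gadd45 family thus lay on both sides of 0 at 2 h. Apex1, the endonuclease that cuts abasic sites, had 18.9 FPKM in saline against 15.0 in cocaine at 2 h (-0.33). Mbd4, an MBD protein that is itself a DNA glycosylase, had 1.16 and 1.68 FPKM at 24 h (0.54) and log2 ratios of 0.04 and -0.01 at the other times. Neil2, a further glycosylase, had 0.659 and 0.476 FPKM at 7 d (-0.47). Over the 14 genes of this list in the background, 2 were past 1.2-fold higher and 2 lower at 2 h, 2 higher and 0 lower at 24 h, and 1 higher and 1 lower at 7 d, with medians of 0.09, 0.14 and -0.02. Tdg, the glycosylase that removes the oxidised products of TET enzymes, had 11.0 to 12.9 FPKM and was within 1.2-fold at each time.

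Other proteins that bind methylated CpG or belong to the MBD family were represented by Mbd6, Zbtb33, Zbtb4 and Zbtb38. Their median log2 ratios were 0.28, -0.06 and 0.19. At 2 h Zbtb33, which encodes Kaiso, had 4.15 and 5.47 FPKM (0.40) and Mbd6 had 2.36 and 2.91 (0.30). They were the 2 of these 4 genes past 1.2-fold higher at 2 h, and none was past it at 24 h or 7 d.

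In the NuRD list, 12, 12 and 13 genes were in the background at 2 h, 24 h and 7 d, and Gatad2b at 7 d (7.35 and 8.82 FPKM, log2 ratio 0.26) was the only value past 1.2-fold. Its medians were 0.08, -0.02 and 0.10. Of the corepressor partners of the readers, 6 genes were in the background at each time, with Tbl1xr1 in place of Atf7ip at 7 d. All were within 1.2-fold, with medians of 0.04, 0.04 and 0.06. In the PR-DUB list, Asxl2 had 1.41 and 1.69 FPKM at 2 h (0.26). At 7 d Foxk1 had 4.73 and 5.80 FPKM (0.29) and Asxl3 had 0.565 and 0.464 (-0.29). Of the enzymes that supply S-adenosylmethionine, the methyl donor, Mtrr was past 1.2-fold higher at 2 h (1.81 and 2.19 FPKM, 0.27) and Shmt1 at 24 h (0.878 and 1.11 FPKM, 0.34). None of those in the background was past 1.2-fold at 7 d. Shmt1 had the status NOTEST at that time, with 0.434 FPKM in saline and 0.280 in cocaine.

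**Figure D4:**
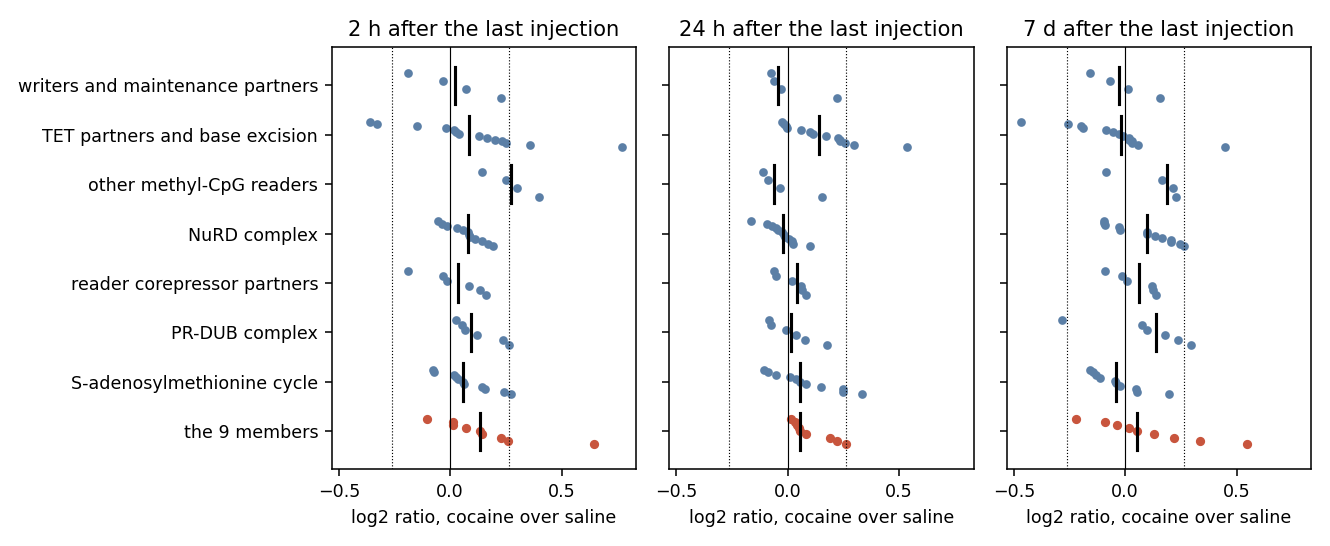
Log2 ratio of cocaine FPKM over saline FPKM for each gene of the 7 partner lists in the background (blue) and for the 9 genes (red), with the median of each row as a black bar and dotted lines at 1.2-fold. Most points lie within the dotted lines, and the outermost are Gadd45b at 2 h (0.77), Tet3 at 2 h (0.65), Tet2 at 7 d (0.55) and Mbd4 at 24 h (0.54).

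For each of the 9 genes, the gene with the most similar log2 ratios at the 3 times was sought by Euclidean distance over the 3 values. The 72 candidates were the other members, the partners in the background at each time, and the genes known to respond to neuronal activity that are described below. Gadd45a was nearest to both Tet2 (distance 0.25) and Tet3 (0.31), which were the largest of the 9 distances. The nearest to Dnmt1 was Mta2 (0.08), to Dnmt3a Neil1 (0.11) and to Tet1 Usp7 (0.12). The nearest to Mbd1 was Smug1 (0.06), to Mbd2 Mthfd1 (0.02), to Mbd3 Asxl1 (0.08) and to Mbd5 Cxxc5 (0.07). With 3 values per gene, these distances are a description.

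Genes outside these lists were also looked at, for the response to activity and for the cell types of the tissue. Of 10 genes known to respond to neuronal activity, among them Fos and Arc, 10 were past 1.2-fold higher in cocaine at 2 h, 9 at 24 h and 9 at 7 d, with median log2 ratios of 2.12, 0.74 and 0.68. The study had reported Fos, Egr1, Nr4a1 and Dusp6 as changed at each time in these same data. This outcome was thus known beforehand and is no independent check of the labels. Markers of cortical projection neurons summed to 564 to 641 FPKM in the 6 groups, and their cocaine to saline log2 ratio was 0.03 to 0.04, although at 7 d 1 of the 7 genes was past 1.2-fold higher and 2 lower. Red blood cell genes were higher in cocaine at 2 h, as Tet3 was. Their sum was then 323 FPKM in saline against 504 in cocaine, with 5 of 5 genes past 1.2-fold higher. At 24 h the sum was 458 against 504, with 0 genes past 1.2-fold, and at 7 d 452 against 530, with 3 higher. Choroid plexus genes summed to 4.20 against 3.30 FPKM at 2 h, 4.92 against 4.37 at 24 h and 3.43 against 9.56 at 7 d, the time of the largest Tet2 ratio, when 2 of the 5 genes were past 1.2-fold higher and 2 lower. Oligodendrocyte markers summed to 803 FPKM in saline against 669 in cocaine at 24 h. The sums for interneurons, astrocytes, microglia, endothelium and striatal neurons had log2 ratios from -0.17 to 0.21 at the 3 times. Within them, 2 of 6 astrocyte genes were past 1.2-fold lower at 24 h and 2 higher at 7 d, and of the 6 striatal genes listed 1 was higher and 2 were lower both at 2 h and at 7 d. No gene of these marker lists that was found in the tables was at 0 in both groups of a table. The part of other cells or blood in the values of the 9 genes was not tested.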

How the data were processed

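Polyadenylated RNA of mouse prefrontal cortex was sequenced from 12 libraries, 2 per group, each from 5 pooled animals. Trimmed reads were aligned by the authors with TopHat2. Reads that mapped to 1 place were passed to Cufflinks, whose Cuffdiff program compared the groups separately at each time. The submitters' processing notes name CASAVA 1.8.2, Trimmomatic 0.32, TopHat2 2.0.12, Cufflinks 2.2.1 and GRCm38, whereas the methods name another trimmer and an older mouse build. The loci were checked against RefSeq genes of GRCm38.p6, and 99.81%, 97.75% and 99.8% at 2 h, 24 h and 7 d overlapped the gene of the same name.

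The authors deposited 1 table per time, which holds for each locus an FPKM per group, pooled over its 2 libraries, with their own log2 fold change, test statistic, p-value, q-value and call. Those columns of the authors' comparison were not used, so that 1 value per group remained and no test was possible. Depth per library is unknown from the tables. The columns are headed by time with or without a C. Which of them is saline was read from near-identical values under named headings in the study's supplementary tables.

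Log2 ratios were computed without a pseudocount in Python 3.11.15 with pandas 2.3.3 and numpy 2.4.6, and plotted with matplotlib 3.10.9. The background was every locus of status OK with both FPKM above 0. Transcript lengths were those of GENCODE M1 and promoter sequences those of RefSeq. The scripts were tested on simulated data. Named genes were every member at every time, up to 5 genes past 1.2-fold with the largest log2 ratio from each partner list and time, the nearest gene to each member, and the activity genes. The low or abundant genes Dnmt3b, Dnmt3l, Uhrf1, Uhrf2 and Tdg, and the genes that overlap a member, were named after their values were seen. Alternatives were the fold (1.1 and 1.5), pseudocounts of 0.1 and 1, a mean FPKM of at least 1, no status filter, and the background median or the length trend taken off. An alternative with rows of status OK only was chosen after seeing the data. Some genes of the partner lists are not reported here and were left out of the list counts. The members and lists were chosen with earlier results of these data known.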

Additional observations from a re-analysis of the deposited data

Results flagged for a closer look

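For 3 of the 9 genes the ratio of cocaine to saline lay on opposite sides of 1 at 2 h and 7 d, with the ratios at least 1.2-fold apart. Mbd5 had a log2 ratio of 0.26 at 2 h and -0.22 at 7 d, a difference (7 d less 2 h) of -0.48. Mbd1 had 0.23 and -0.09, a difference of -0.32, and its row at 2 h carried the status FAIL. Tet1 had -0.10 and 0.22, a difference of 0.32, at a level for which Cuffdiff made no test. With the length medians taken off, as an alternative chosen after seeing the data, the differences were -0.52 for Mbd5, -0.30 for Mbd1 and 0.26 for Tet1, which is then just under 1.2-fold. With 1 pooled value per group, these differences were not tested.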

How the results depend on the processing

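No paired analysis was possible because the tables hold 1 pooled value per group, and for the same reason no replicate could be left out. The counts of members past 1.2-fold higher (1 at 2 h, 1 at 24 h and 2 at 7 d) depended on the threshold. At 1.1-fold they were 4, 3 and 3, with 1 lower at 7 d, and at 1.5-fold 1, 0 and 0. With the transcript length trend taken off they were 1, 0 and 1, with 1 lower at 7 d (Mbd5). A pseudocount of 1 gave 1, 0 and 0, and one of 0.1 gave 1, 0 and 2. Taking off the background median gave 1, 0 and 2. A mean FPKM of at least 1 gave 1, 1 and 1, since Tet2 was then left out at 7 d. With rows of status OK only, chosen after seeing the data, they were 0, 0 and 2, since Tet3 was then left out at 2 h and 24 h. The count at 24 h is Tet3 at a ratio of 1.201. The member counts use no status filter and each member had a single row, so that leaving out the filter or choosing another row could not change them. Of the 9 genes, 4 in place of 5 were higher in cocaine in all 3 tables with the background median or the length trend taken off, both added after seeing the data. Of the 27 ratios of the 9 genes, 2 changed sign with the background median taken off and 4 with the length trend taken off, and none of these was past 1.2-fold. The depth per library is not in the tables, and the wide ratios of loci at the level of Tet1 and Tet2 limit what a ratio there can show.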
